A study of Mus musculus with 12 samples.

Results

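The genes of glucose breakdown, glucose production and glycogen turnover were followed in mouse liver. A fixed list of 38 symbols was matched to the count tables. The tables hold the muscle-type pyruvate kinase gene under its older symbol Pkm2 and have no row named Pkm, so 37 members were found among 22609 genes. All 37 passed the filter on low counts and stood among the 13684 genes tested. They comprised 5 transporters of glucose and lactate, 11 genes of upper glycolysis, 10 of lower glycolysis and lactate formation, 3 pyruvate dehydrogenase kinases, 5 genes of gluconeogenesis, and 3 genes of glycogen turnover and its hormonal control.

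RNA was sequenced from the livers of 12 untreated adult mice, 3 of each of 4 genotypes. AEG1_MYC mice carried both an Alb/AEG-1 and an Alb/c-Myc transgene, AEG1 mice carried Alb/AEG-1 alone, MYC mice carried Alb/c-Myc alone, and WT mice carried neither. All came from matings between heterozygous carriers of each transgene. Alb denotes the albumin promoter, which is active in hepatocytes, so other liver cells are not where these transgenes are driven. Mtdh encodes AEG-1, and c-Myc turns on genes of cell growth. The labels give no sex, strain, litter, feeding state, time of collection or batch, and the replicate numbers only name the mice. The study was about cooperation of the transgenes in liver tumour formation.

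Glycolysis splits glucose into pyruvate, and gluconeogenesis runs the path in reverse through a few enzymes of its own. The liver does both: after a meal it takes up glucose and stores it as glycogen, and between meals it releases glucose from glycogen through Pygl and from lactate and amino acids through Pcx, Pck1, Fbp1 and G6pc. Hepatocytes use liver isoforms of several enzymes (Slc2a2, Pfkl, Pklr, Gys2, Pygl), whereas many tumours use Slc2a1, Hk2 and Pkm2. Ldha is also used by many tumours, but it was abundant in these livers of every genotype, as given below. c-Myc is known in other cells to bind the E-box CACGTG near glycolytic genes, Ldha among them. In the liver lobule gluconeogenesis is stronger around the portal vein and glycolysis around the central vein.

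The promoters of the members were therefore read for CACGTG, which is its own reverse complement, in windows of 250 bases before to 50 after the start site (RefSeq, GRCm38.p6). At least 1 window was found for 36 of the 37 members. The motif was present in 6 of these 36 genes (16.7%), against 8.09% of 27025 genes in the whole table. Counted by window it was present in 6 of 57 member windows (10.5%), against 7.15% of 32851 windows. The 6 genes were Slc16a1, Pfkm, Pfkfb3, Ldha, Pdk2 and Pcx. Their windows, with the motif in capitals, include Ldha at chr7:46845554-46845853 (plus strand), which was alone among them in holding 2 copies, Slc16a1 at chr3:104638414-104638713 (plus strand) and Pdk2 at chr11:95041322-95041621 (minus strand). These 3 belong to the formation of lactate, its transport and the kinases that inhibit pyruvate oxidation. A match says only that these letters are there.
Ldha: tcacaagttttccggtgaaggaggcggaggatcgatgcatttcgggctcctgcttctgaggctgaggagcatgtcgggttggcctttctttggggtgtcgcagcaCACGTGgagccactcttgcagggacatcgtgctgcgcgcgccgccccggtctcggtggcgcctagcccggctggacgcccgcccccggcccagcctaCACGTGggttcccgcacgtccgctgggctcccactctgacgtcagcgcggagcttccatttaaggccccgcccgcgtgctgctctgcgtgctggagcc
Slc16a1: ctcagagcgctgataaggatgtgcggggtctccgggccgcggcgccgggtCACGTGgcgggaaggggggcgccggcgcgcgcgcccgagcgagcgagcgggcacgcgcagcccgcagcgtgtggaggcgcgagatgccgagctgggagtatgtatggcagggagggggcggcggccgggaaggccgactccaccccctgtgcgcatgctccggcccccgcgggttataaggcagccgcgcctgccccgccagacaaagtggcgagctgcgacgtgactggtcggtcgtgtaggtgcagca
Pdk2: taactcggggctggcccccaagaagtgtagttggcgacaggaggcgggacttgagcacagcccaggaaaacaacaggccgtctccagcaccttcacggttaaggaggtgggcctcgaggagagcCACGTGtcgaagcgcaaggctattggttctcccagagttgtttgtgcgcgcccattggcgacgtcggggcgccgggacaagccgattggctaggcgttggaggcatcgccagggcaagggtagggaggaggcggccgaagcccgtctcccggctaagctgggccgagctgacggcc

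All 6 genes with the motif had a negative log2 fold change in MYC over WT livers, and none passed the test. The values ran from -0.05 ± 0.14 (SE) for Pdk2 to -0.90 ± 0.75 for Pfkfb3. In the same comparison 21 of the 37 members and 6924 of the 13684 genes tested were negative. In AEG1_MYC over WT 2 of the 6 genes were positive and 4 negative, again with none past the test. Ldha stood at 514, 387 and 503 CPM (a gene's reads with every library set to the same total) in AEG1_MYC livers, 396, 518 and 458 in AEG1 livers, 505, 529 and 409 in MYC livers, and 621, 744 and 438 in WT livers. The groups overlapped, and the log2 fold change of Ldha in MYC over WT was -0.32 ± 0.21 (SE), with an approximate 95% interval from -0.79 to 0.15.

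Each library held 21931197 to 40552316 reads in genes. Myc stood at 58.4 to 165 CPM in AEG1_MYC and 23.4 to 53.8 in MYC livers, against 2.26 to 4.73 in AEG1 and WT livers together. Mtdh stood at 89 to 112 CPM in all 12 libraries, so its counts did not separate the genotypes that carry Alb/AEG-1, and whether a transcript of that transgene is counted under Mtdh was not tested. Of the 3 AEG1_MYC libraries, replicates 2 and 1 stood apart from the rest, with a mean correlation of log2 CPM to the other libraries of 0.923 and 0.955, against 0.968 to 0.972 for the other 10. AEG1_MYC replicate 2 had a summed level of 10 periportal hepatocyte markers of 931 CPM, against 4150 to 6410 elsewhere. AEG1_MYC replicate 1 had the highest summed neutrophil markers, 63.3 CPM against 0.418 to 3.9 elsewhere, and the highest summed macrophage markers, 861 CPM against 129 to 596. The pericentral markers moved with the AEG1_MYC genotype as a whole. The 10 of them summed to 14000, 36100 and 16000 CPM in AEG1_MYC livers, 7000 to 9540 in AEG1, 5600 to 7880 in MYC and 8280 to 12000 in WT livers. All 10 were positive in AEG1_MYC over WT, with a median log2 fold change of 1.66, and 2 were called by edgeR (Rhbg and Slc1a2). The 10 hepatocyte markers were abundant in every library and summed to 69400, 47100 and 88300 CPM in AEG1_MYC livers. The sums were 95100 to 103000 in AEG1, 81600 to 99500 in MYC and 120000 to 127000 in WT livers. AEG1_MYC replicates 1 and 2 thus lay below all other libraries, and replicate 3 lay inside the MYC range. The largest term was the albumin gene Alb, at 39700, 24100 and 55900 CPM in AEG1_MYC livers. Alb stood at 53100 to 70000 in MYC and 83500 to 92800 in WT livers. In AEG1_MYC over WT 9 of these 10 were negative, with a median of -0.33 and none called. The 15 cell cycle genes summed to 54.7 to 108 CPM in AEG1_MYC livers, 20.2 to 48.4 in AEG1, 27.3 to 44.7 in MYC and 20.5 to 45.8 in WT livers, and all 15 were positive in AEG1_MYC over WT, with a median of 1.4 and none called. Of 15 genes of the daily clock, 4 lay above and 3 below all WT livers in the 3 AEG1_MYC livers, with 0 called. Over all genes tested, 19.5% did not overlap between these 2 genotypes. Arntl stood at 2.78, 8.24 and 2.09 CPM in AEG1_MYC livers and 21.4, 35.8 and 11.1 in WT livers. Between AEG1_MYC and AEG1 livers 0 of the 15 stood apart, and the labels give no time of collection. The part of these shifts in the AEG1_MYC values of the members was not tested. Skeletal muscle markers summed to at most 1.08 CPM, with 1 of 8 at 0 in all libraries.

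Set per length, 4 genes of gluconeogenesis were among the 6 highest members. On the scale of mean CPM per kilobase of exon over the 12 libraries (GENCODE M21 exon lengths, not the authors' annotation), Fbp1 (fructose-1,6-bisphosphatase) stood at 646 and Pck1 (cytosolic phosphoenolpyruvate carboxykinase) at 458. They were followed by Pklr (liver pyruvate kinase) at 186, Ldha at 152, G6pc (glucose-6-phosphatase) at 148 and Pcx (pyruvate carboxylase) at 140. Between isoforms the gap was wide for Slc2a2 at 83.9 and Slc2a1 at 2.84, for Pklr at 186 and Pkm2 at 2.58, and for Ldha at 152 and Ldhb at 1.24. It was small for Pfkl at 8.73 and Pfkm at 6.23. Aldoa stood at 20.4 per kilobase, Hk1 at 0.537 and Hk2 at 0.352. These levels count uniquely aligned reads and are too low for genes with near-identical copies. Of the 50-base stretches of Pgk1, 68% also occur in transcripts of other genes, and the share was 58.4% for Gapdh, 49.5% for Eno1 and 41.5% for Pgam1. The low Gapdh level of 0.382 per kilobase cannot be read as the expression of that enzyme, and values of these 4 genes are uncertain throughout.

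**Figure D1:**
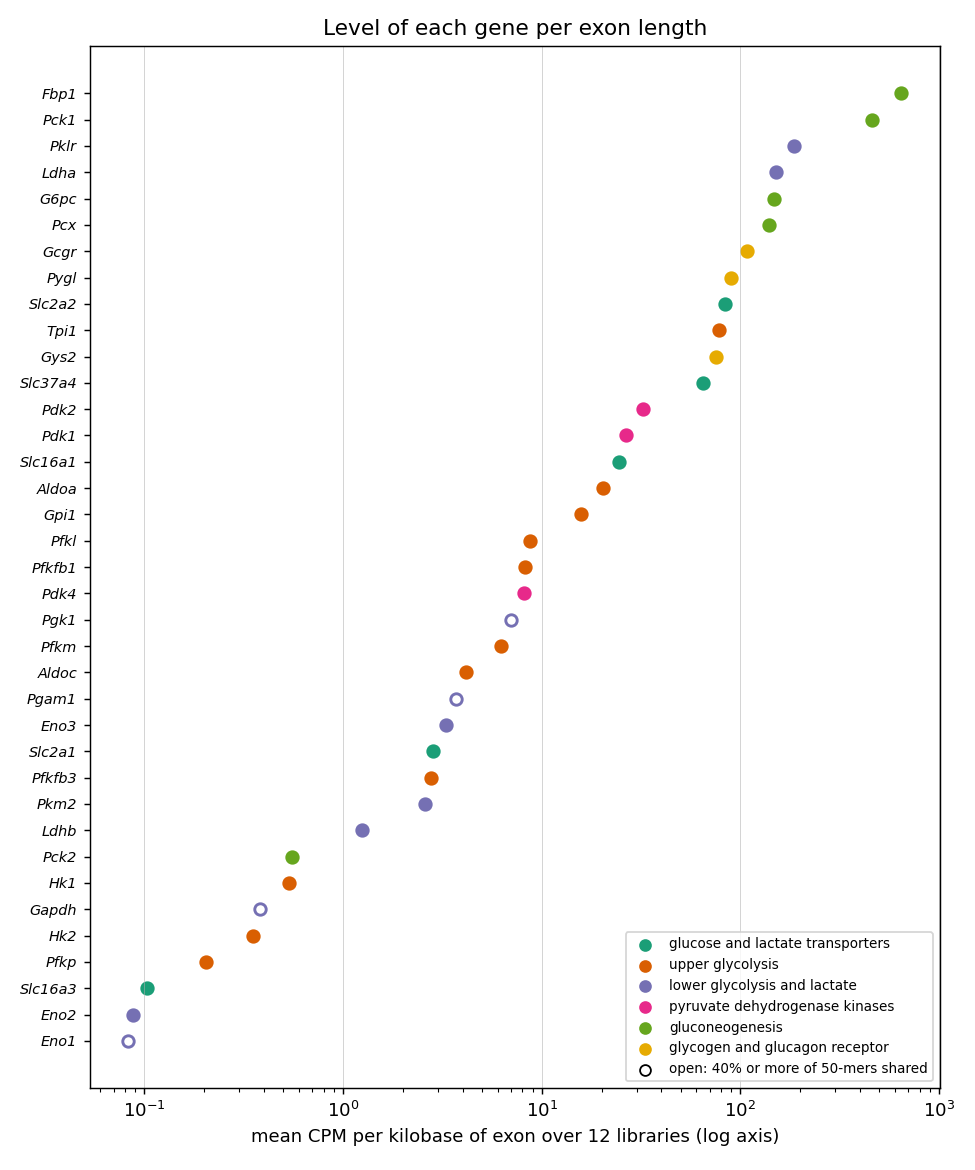
Mean CPM per kilobase of exon of the 37 genes over 12 liver libraries (log axis), coloured by role, with open circles for the 4 genes that share 40% or more of their 50-base stretches with other genes. The genes span from 0.0831 for Eno1 to 646 for Fbp1, and 4 of the 5 genes of gluconeogenesis lie at 140 or more.

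The question of the comparison was whether glucose metabolism genes differ in level when either or both transgenes are present. By edgeR's quasi-likelihood test with Benjamini-Hochberg adjustment over all genes, 0 of 37 members were called in any of the 6 contrasts. The shares called among all genes tested were 0.263% in AEG1_MYC over WT, 0% in AEG1 over WT, 0% in MYC over WT, 0.322% in AEG1_MYC over AEG1, 0.205% in AEG1_MYC over MYC, and 0.0219% for the interaction of the transgenes. At such shares no call among 37 genes is close to the background. The median log2 fold change of the members in AEG1_MYC over WT was -0.05, with 17 positive and 20 negative, and that of all genes tested was 0.01. In AEG1 over WT the members' median was -0.03, and in MYC over WT it was -0.05.

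An unadjusted p under 0.05 was reached by 5 members in AEG1_MYC over WT (17.2% of all genes), 1 in AEG1 over WT (3.92%), 1 in MYC over WT (3.47%), 6 in AEG1_MYC over AEG1 (17.4%), 4 in AEG1_MYC over MYC (15.2%) and 3 for the interaction (9.25%). Libraries of the 2 genotypes did not overlap for 6 members in AEG1_MYC over WT (19.5% of all genes), 2 in AEG1 over WT (10.7%), 4 in MYC over WT (11.6%), 5 in AEG1_MYC over AEG1 (17.8%) and 6 in AEG1_MYC over MYC (18.5%). These shares of the 37 members are near those of all genes. DESeq2, an alternative count test, called 2 members in AEG1_MYC over WT (4.77% of all genes with an adjusted p), and they were Pygl and Ldhb. It called the same 2 genes in AEG1_MYC over AEG1 (5.13%) and in AEG1_MYC over MYC (3.44%), Pygl alone for the interaction (1.17%), and 0 members in AEG1 over WT (0.11%) or MYC over WT (0.205%). limma with library quality weights called 0 members in all 6 contrasts. Its shares over all genes were 0.168% in AEG1_MYC over WT, 0% in AEG1 over WT, 0% in MYC over WT, 0.424% in AEG1_MYC over AEG1, 0.183% in AEG1_MYC over MYC and 0.0365% for the interaction. Leaving out AEG1_MYC replicate 3, edgeR called 687 genes (4.95%) in AEG1_MYC over WT in place of 36, and 3 of them were members, Pygl, Ldhb and G6pc. In the same setting it called 2 members in AEG1_MYC over AEG1 (4.54% of all genes) and 1 in AEG1_MYC over MYC (3.24%).

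**Figure D2:**
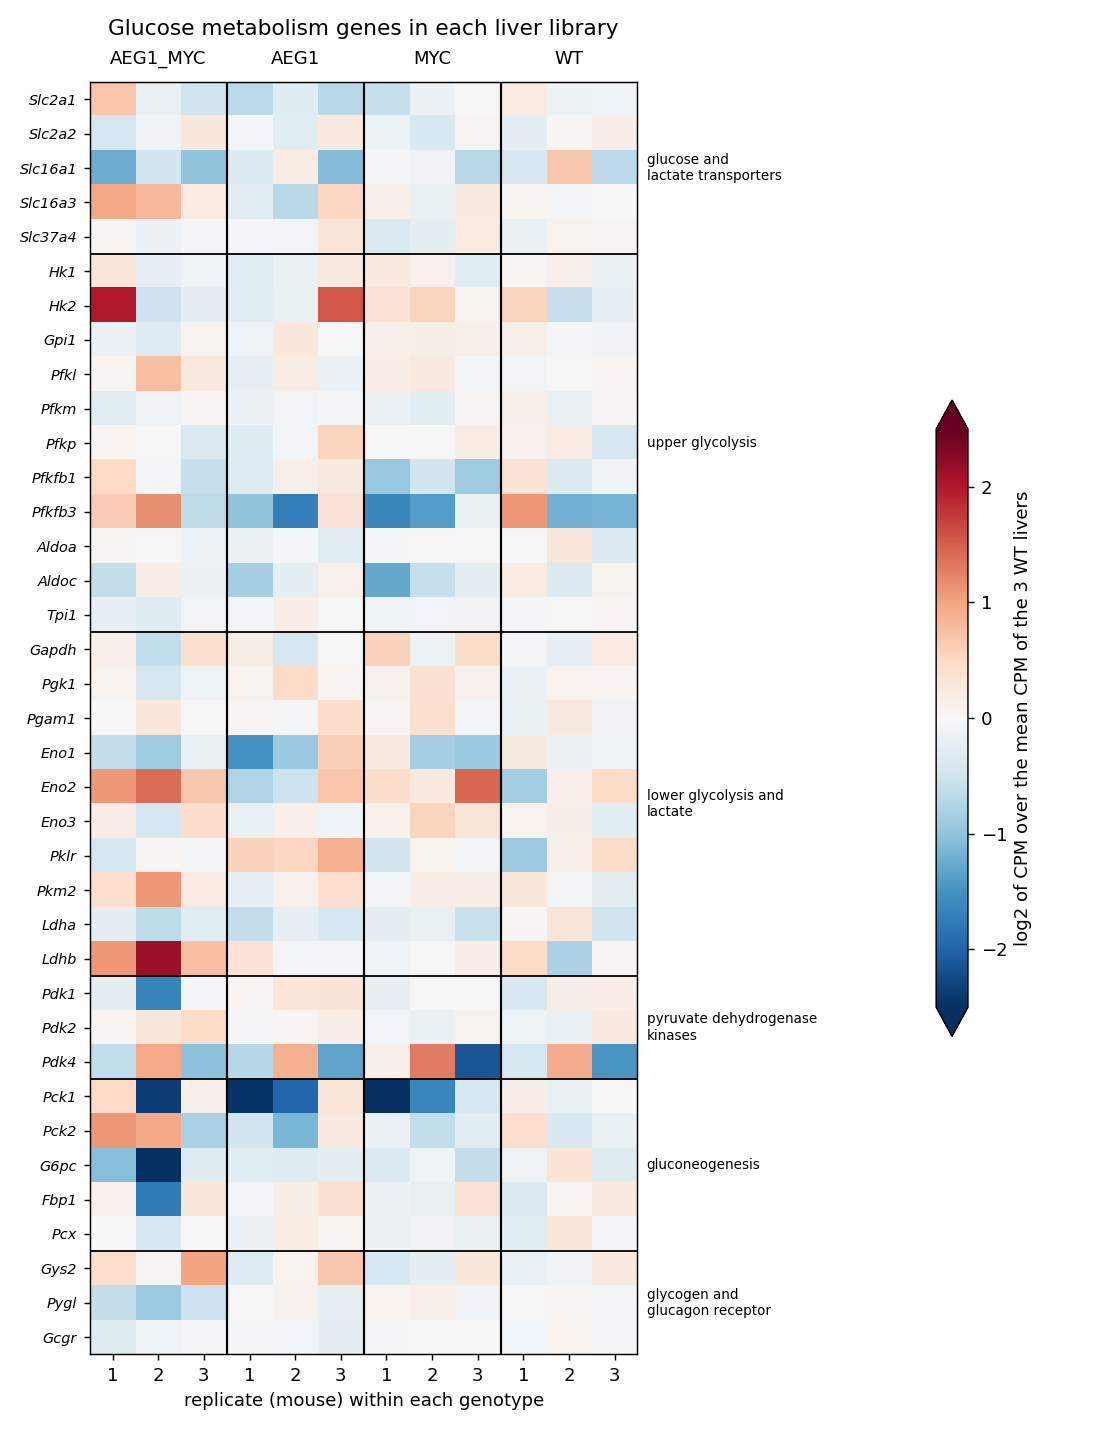
Log2 of the CPM over the mean CPM of the 3 WT livers for 37 genes (rows, by role) in 12 libraries (columns, 3 mice per genotype), red above and blue below the WT mean. Pygl is blue and Ldhb red in all 3 AEG1_MYC libraries, and dark cells of Pck1, Pdk4, Pfkfb3 and Hk2 fall in some but not all libraries of a genotype.

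Pygl, the liver glycogen phosphorylase that frees glucose units from glycogen, had the lowest p of all members in AEG1_MYC over WT, over AEG1 and over MYC. It stood at 451, 366 and 471 CPM in AEG1_MYC livers, 683, 739 and 589 in AEG1 livers, 727, 743 and 644 in MYC livers, and 680, 702 and 665 in WT livers. All 3 AEG1_MYC libraries lay below the other 9, and those of the other 3 genotypes overlapped. Means were 429 ± 55.7 CPM in AEG1_MYC livers and 683 ± 18.5 CPM in WT livers (SD, n = 3 each). The log2 fold change was -0.67 ± 0.14 (SE) over WT (adjusted p = 0.0895), -0.64 ± 0.14 over AEG1 (adjusted p = 0.078) and -0.72 ± 0.14 over MYC (adjusted p = 0.0768). AEG1 and MYC livers each stood close to WT, at -0.03 ± 0.14 and 0.05 ± 0.14, with approximate 95% intervals from -0.34 to 0.29 and from -0.27 to 0.36. The interaction, which asks whether the AEG1 difference changes when MYC is present, was -0.69 ± 0.19 (adjusted p = 0.36 by edgeR, 0.0259 by DESeq2). DESeq2's adjusted p of Pygl was 7.5e-05 over WT. The fold change over WT was -0.57 without AEG1_MYC replicate 2. Pygl was read with 12349 to 26662 reads per library, so counting error is small beside the spread of the mice. The 3 AEG1_MYC livers also lay below all WT and AEG1 livers in summed hepatocyte markers, a sum in which Alb is the largest term. In that sum AEG1_MYC replicate 3 lay inside the MYC range. All 3 lay above all others in summed pericentral markers. The part of these markers, and of the clock genes given above, in the Pygl level was not tested. Because these are pieces of whole liver, fewer cells of a type and less RNA per cell cannot be told apart.

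Gys2, the liver glycogen synthase that builds the chain Pygl shortens, stood at 236, 185 and 350 CPM in AEG1_MYC livers, 141, 187 and 282 in AEG1 livers, 135, 149 and 213 in MYC livers, and 155, 167 and 209 in WT livers. The groups overlapped, and the log2 fold change in AEG1_MYC over WT was 0.54 ± 0.30 (adjusted p = 0.369), opposite in sign to that of Pygl. Gcgr, the glucagon receptor, was among the steadiest members, at 241 to 289 CPM in AEG1_MYC, 249 to 288 in AEG1, 292 to 295 in MYC and 284 to 313 in WT livers. Its log2 fold change in AEG1_MYC over WT was -0.13 ± 0.11, with an approximate 95% interval from -0.38 to 0.11. Among 20 other genes of glycogen turnover tested, 0 were called in any contrast by edgeR, and in AEG1_MYC over WT 1 had an unadjusted p under 0.05. That gene was Gyg, glycogenin, which primes new glycogen, at 0.69 ± 0.27 (adjusted p = 0.23).

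**Figure D3:**
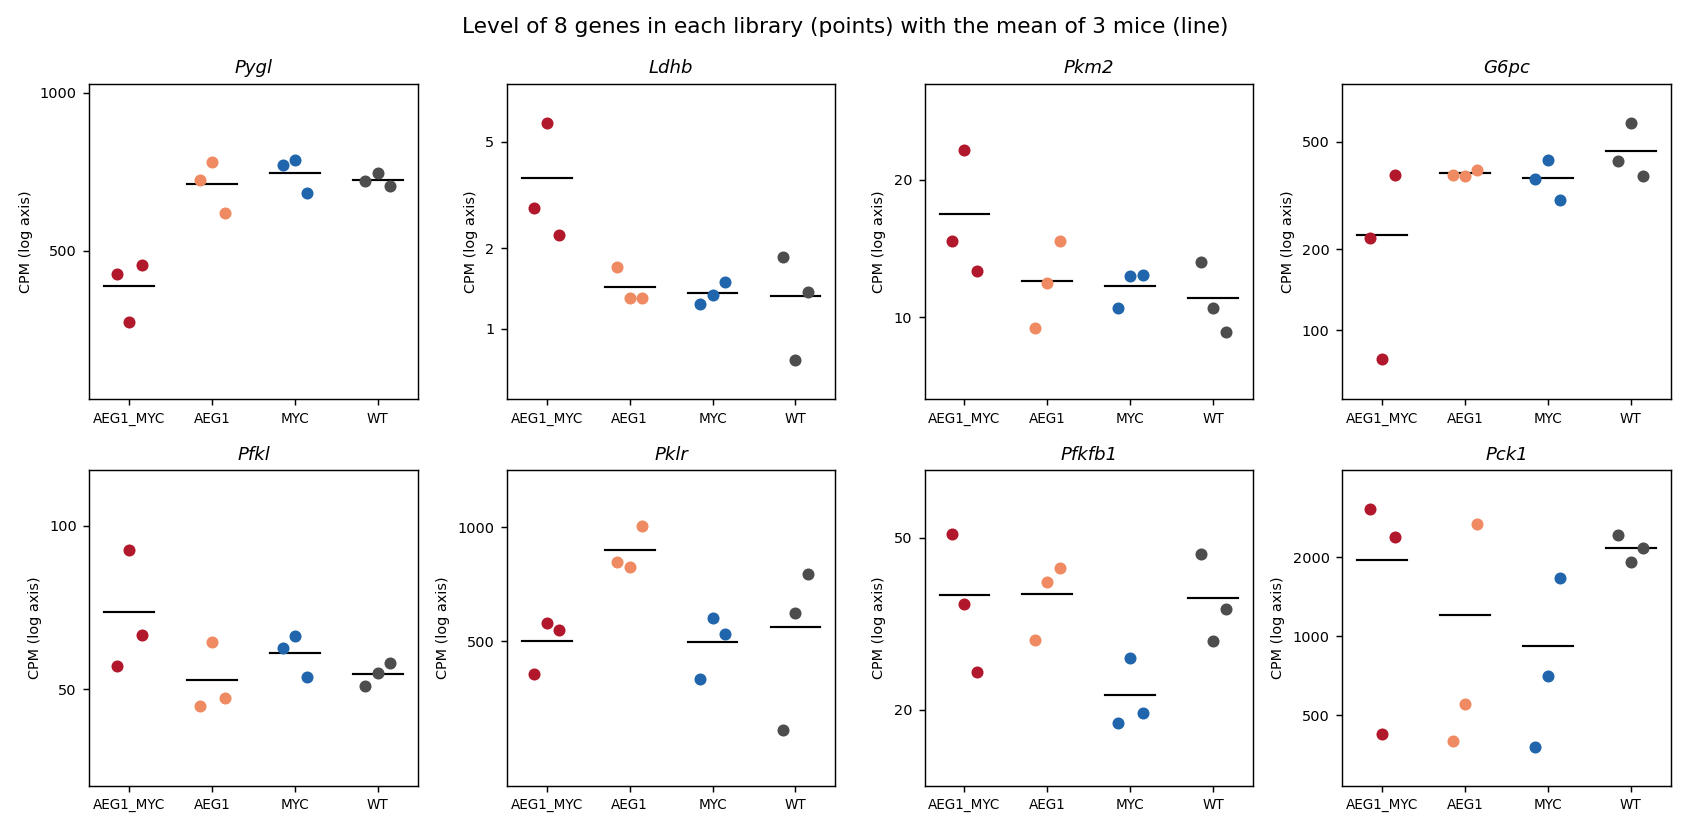
CPM (log axis) of 8 genes in each library (points) with the mean of the 3 mice (line), by genotype. Pygl in the 3 AEG1_MYC livers lies at 366 to 471, below every other library, while Pck1 spans from 378 to 3060 with low libraries in 3 genotypes.

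In lower glycolysis the lowest p belonged to Ldhb, the heart-type lactate dehydrogenase subunit. Ldhb stood at 2.84, 5.90 and 2.25 CPM in AEG1_MYC livers, 1.70, 1.31 and 1.31 in AEG1 livers, 1.24, 1.34 and 1.5 in MYC livers, and 1.86, 0.766 and 1.37 in WT livers. Every AEG1_MYC library lay above the other 9, on 70 to 199 reads against 20 to 61. The log2 fold change was 1.45 ± 0.40 over WT (adjusted p = 0.141), 1.34 ± 0.40 over AEG1 (adjusted p = 0.142) and 1.43 ± 0.39 over MYC (adjusted p = 0.181). DESeq2's adjusted p over WT was 0.0221. Without AEG1_MYC replicate 2, the highest library, the value over WT was 0.93. Of the 50-base stretches of Ldhb, 21% also occur in transcripts of 1 other gene, so its level is uncertain.

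Pkm2, the muscle-type pyruvate kinase gene of proliferating cells, stood at 14.7, 23.2 and 12.6 CPM in AEG1_MYC livers, 9.48, 11.9 and 14.7 in AEG1 livers, 10.5, 12.3 and 12.4 in MYC livers, and 13.2, 10.5 and 9.27 in WT livers. The groups of AEG1_MYC and WT overlapped, and the log2 fold change of 0.61 ± 0.24 (adjusted p = 0.235) was 0.31 without AEG1_MYC replicate 2. That library, the highest in Pkm2, also had the highest summed cell cycle genes, 108 CPM; their part was not tested. The counts do not separate the spliced forms of this gene. Of its 50-base stretches 23.7% also occur in transcripts of other genes, and 15.3% of its exon bases lie in other genes' exons.

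Pklr, the liver pyruvate kinase, was highest in AEG1 livers. It stood at 410, 559 and 534 CPM in AEG1_MYC livers, 808, 786 and 1010 in AEG1 livers, 397, 576 and 521 in MYC livers, and 290, 593 and 752 in WT livers. All AEG1 libraries lay above those of the other 3 genotypes. The log2 fold change was 0.67 ± 0.30 in AEG1 over WT (unadjusted p = 0.0455, adjusted p = 1) and -0.79 ± 0.30 in AEG1_MYC over AEG1 (adjusted p = 0.216), both by edgeR. The first value was 0.37 without WT replicate 1, the lowest WT library. Of the exon bases of Pklr, 22% also lie in exons of another gene, so reads there cannot be assigned with certainty.

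Pgk1, phosphoglycerate kinase, had an interaction of -0.54 ± 0.23 (adjusted p = 0.505). It stood at 15.9, 11.4 and 13.9 CPM in AEG1_MYC livers, 15.8, 20.8 and 15.5 in AEG1 livers, 16.1, 19.5 and 16.1 in MYC livers, and 13.5, 15.9 and 15.5 in WT livers, and its reads are those left after most of the transcript is lost to copies elsewhere. The enolases Eno1 and Eno2 had at least 1 library with 6 and 4 reads, so their large log2 fold changes in AEG1_MYC over WT, -0.54 ± 0.54 and 1.10 ± 0.52, rest on few reads. Gapdh, Pgam1 and Eno3 had log2 fold changes between 0.03 and 0.10 in the same comparison.

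Upper glycolysis held no member with an adjusted p under 0.05. Pfkl, the liver phosphofructokinase that commits sugar to glycolysis, stood at 55.3, 90.2 and 63.0 CPM in AEG1_MYC livers, 46.6, 61.1 and 48.3 in AEG1 livers, 59.6, 62.8 and 52.6 in MYC livers, and 50.8, 53.6 and 55.9 in WT livers. Its log2 fold change in AEG1_MYC over WT was 0.38 ± 0.17 (adjusted p = 0.289) and was 0.15 without AEG1_MYC replicate 2. Pfkfb1, the liver enzyme that makes and breaks the activator of phosphofructokinase, stood at 51.2, 35.1 and 24.5 CPM in AEG1_MYC livers, 29.0, 39.5 and 42.7 in AEG1 livers, 18.7, 26.4 and 19.7 in MYC livers, and 45.8, 28.8 and 34.3 in WT livers. All MYC libraries lay below all WT libraries, with a log2 fold change of -0.75 ± 0.27 (unadjusted p = 0.02, adjusted p = 0.999 by edgeR). In AEG1_MYC over MYC it was 0.77 ± 0.27 (adjusted p = 0.243), and the 2 groups overlapped.

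Tpi1, triosephosphate isomerase, had the highest CPM of upper glycolysis and the least spread of all members. It stood at 193, 180 and 214 CPM in AEG1_MYC livers, 215, 251 and 224 in AEG1 livers, 207, 213 and 211 in MYC livers, and 215, 225 and 230 in WT livers. The AEG1_MYC libraries lay below the WT ones, by a log2 fold change of -0.19 ± 0.10 (adjusted p = 0.344). Hk2, the hexokinase of muscle and many tumours, was high in single libraries of 2 genotypes: 5.95, 1.04 and 1.25 CPM in AEG1_MYC livers, 1.23, 1.31 and 4.37 in AEG1 livers, 1.90, 2.17 and 1.58 in MYC livers, and 2.17, 0.995 and 1.28 in WT livers. AEG1_MYC replicate 1, the highest in Hk2, is the library with the neutrophil and macrophage markers given above; their part in its Hk2 level was not tested. The other members of this group, Hk1, Gpi1, Pfkm, Pfkp, Pfkfb3, Aldoa and Aldoc, had log2 fold changes in AEG1_MYC over WT between -0.16 for Aldoc and 0.56 for Pfkfb3. Without AEG1_MYC replicate 2 these values were -0.35 for Aldoc and 0.14 for Pfkfb3.

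**Figure D4:**
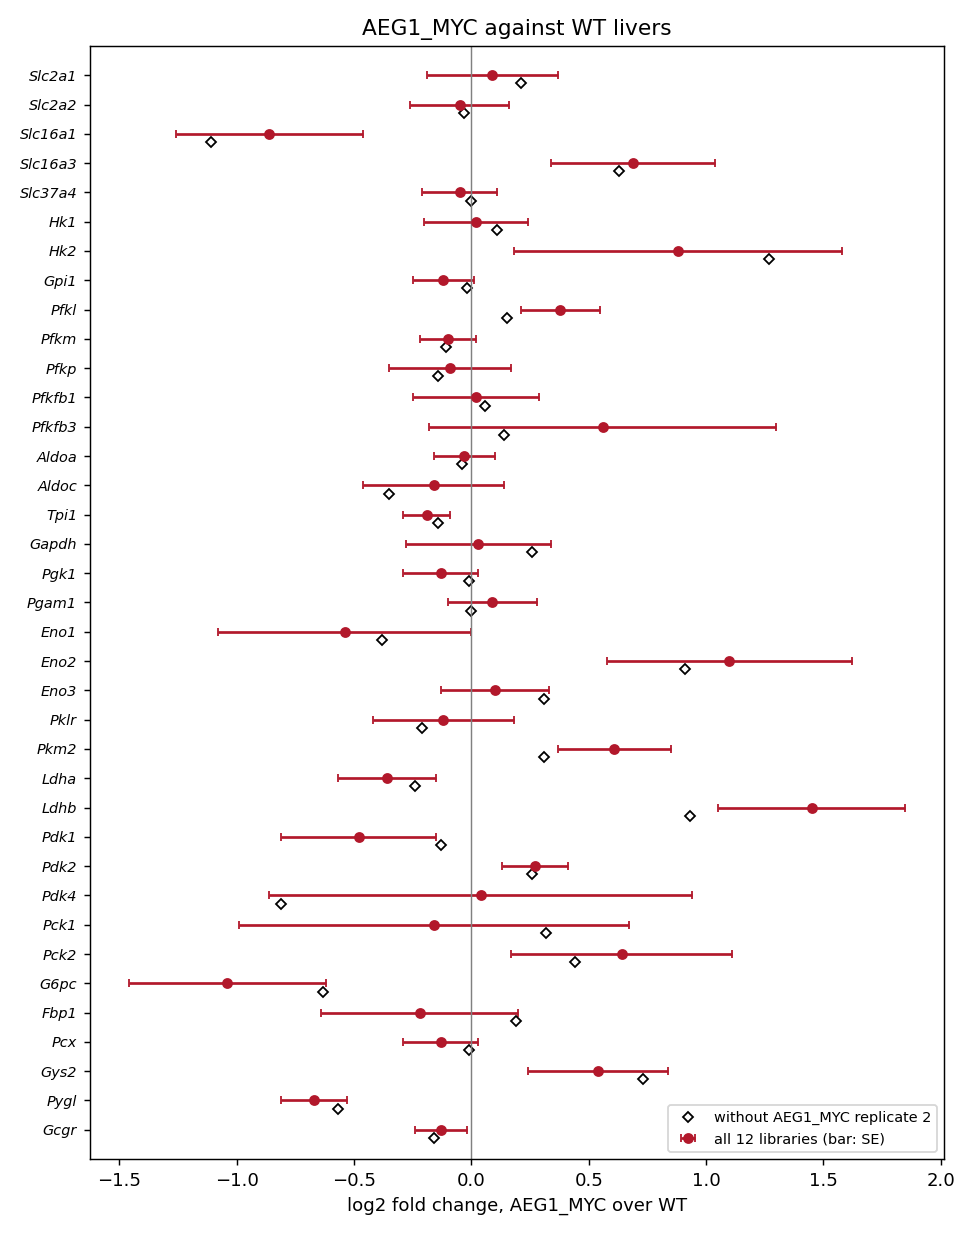
Log2 fold change of each gene in AEG1_MYC over WT livers from all 12 libraries (filled, bar ± SE) and without AEG1_MYC replicate 2 (open). Ldhb is at 1.45 with all libraries and 0.93 without that one, G6pc at -1.04 and -0.63, Pygl at -0.67 and -0.57.

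Among the transporters, Slc2a2, the glucose carrier of hepatocytes, had the highest CPM. It stood at 369, 469 and 608 CPM in AEG1_MYC livers, 479, 417 and 590 in AEG1 livers, 454, 385 and 526 in MYC livers, and 429, 508 and 559 in WT livers. The 4 groups overlapped, and the log2 fold change in AEG1_MYC over WT was -0.05 ± 0.21, with an approximate 95% interval from -0.53 to 0.43. Slc2a1, a widespread glucose carrier used by many tumours, stood at 17.7, 9.69 and 7.77 CPM in AEG1_MYC livers, 6.94, 8.93 and 6.80 in AEG1 livers, 7.39, 9.95 and 11.1 in MYC livers, and 12.7, 10.1 and 10.2 in WT livers. All 3 AEG1 libraries lay below the WT ones (-0.54 ± 0.28, adjusted p = 1). Slc16a1, the main lactate carrier, had the most negative value of this group in AEG1_MYC over WT, -0.86 ± 0.40 (adjusted p = 0.297), with 57.9 to 99.1 CPM in AEG1_MYC livers and 87 to 220 in WT livers. Slc16a3, the lactate exporter of glycolytic cells, lay above WT in all 3 AEG1_MYC libraries, but only at 0.546 to 0.925 CPM against 0.459 to 0.488 CPM. Slc37a4, which carries glucose 6-phosphate into the endoplasmic reticulum for G6pc, stood at 170 to 192 CPM in AEG1_MYC and 165 to 200 in WT livers.

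The pyruvate dehydrogenase kinases inhibit the entry of pyruvate into the citric acid cycle. Pdk1 stood at 182, 68.4 and 211 CPM in AEG1_MYC livers, 221, 265 and 269 in AEG1 livers, 186, 216 and 214 in MYC livers, and 165, 237 and 240 in WT livers. The AEG1_MYC libraries lay below the AEG1 ones (-0.71 ± 0.33, adjusted p = 0.292) and overlapped those of WT (-0.48 ± 0.33). Without AEG1_MYC replicate 2 the value over WT was -0.13. Pdk4, the kinase that fasting raises in liver, varied most of all members within genotypes: 17.7, 52.2 and 13.2 CPM in AEG1_MYC livers, 16.5, 49.9 and 10.9 in AEG1 livers, 29.3, 66.2 and 6.11 in MYC livers, and 20.0, 51.2 and 9.82 in WT livers. In all 4 genotypes replicate 2 was the highest and replicate 3 the lowest. The replicate numbers follow accession order. The numbers in the sample titles rise with them within each genotype, and the labels do not say what those numbers mean. The clock gene Arntl was in the same order as Pdk4 in every genotype, and Dbp was highest in replicate 3 of each. Whether the libraries share a factor behind this order was not tested. The log2 fold change of Pdk4 in AEG1_MYC over WT was 0.04 ± 0.90. It was -0.81 without AEG1_MYC replicate 2, which takes the highest library from that genotype alone. Pdk2 stood at 99.5 to 132 CPM in AEG1_MYC and 85.7 to 114 in WT livers (0.27 ± 0.14, adjusted p = 0.336).

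In gluconeogenesis, G6pc, which releases free glucose as the last step, had the lowest p in AEG1_MYC over WT. It stood at 220, 78.1 and 376 CPM in AEG1_MYC livers, 377, 373 and 393 in AEG1 livers, 362, 429 and 305 in MYC livers, and 425, 585 and 372 in WT livers. AEG1_MYC replicate 3 lay inside the WT range and the other 2 below it, and the log2 fold change was -1.04 ± 0.42 (adjusted p = 0.25). It was -1.62 without AEG1_MYC replicate 3 (adjusted p = 0.0434), -0.63 without replicate 2, and -0.29 with replicate 3 alone for that genotype. In AEG1_MYC replicate 2 the periportal markers were also at their lowest, with Cyp2f2, a defining periportal gene, at 2.7 CPM against 508 to 1600 in the other libraries. The part of that shift in the G6pc value was not tested.

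Fbp1 was also lowest in that library, at 1180, 320 and 1320 CPM in AEG1_MYC livers, 1070, 1210 and 1430 in AEG1 livers, 992, 964 and 1410 in MYC livers, and 844, 1140 and 1290 in WT livers. Its log2 fold change in AEG1_MYC over WT was -0.22 ± 0.42, and 0.19 without AEG1_MYC replicate 2. Pcx stood at 530 to 689 CPM in AEG1_MYC and 580 to 829 in WT livers (-0.13 ± 0.16). Pck2, the mitochondrial carboxykinase, stood at 8.95, 8.12 and 2.38 CPM in AEG1_MYC livers against 5.58, 3.18 and 3.72 in WT livers, and the groups overlapped.

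Pck1 differed widely between libraries of the same genotype, outside WT. It stood at 3060, 426 and 2380 CPM in AEG1_MYC livers, 400, 552 and 2670 in AEG1 livers, 378, 707 and 1670 in MYC livers, and 2440, 1920 and 2170 in WT livers. Low values of 378 to 707 CPM occurred in 3 genotypes and not in WT. All 3 MYC libraries lay below the WT ones, by -1.24 ± 0.84 (adjusted p = 0.999), with an approximate 95% interval from -3.18 to 0.69. The 2 low AEG1 and the 2 low MYC libraries also had low Dbp, a clock-driven gene that peaks at a set time of day. Dbp stood at 15.1 and 1.16 CPM in AEG1 replicates 1 and 2 and at 0.691 and 0.613 CPM in MYC replicates 1 and 2, against 96.4 to 142 CPM in the third libraries of AEG1, MYC and AEG1_MYC. AEG1_MYC replicate 2 had low Pck1 with Dbp at 64.9 CPM, and WT replicate 2 had Pck1 at 1920 CPM with Dbp at 7.24. The summed periportal markers were lowest in AEG1_MYC replicate 2, at 931 CPM, and their part in its Pck1 level was not tested. The log2 fold change of Pck1 in AEG1_MYC over WT was -0.16 ± 0.83, and 0.32 without that library. A list of 9 fasting-responsive genes summed to 4550 to 6600 CPM in AEG1_MYC, 5060 to 6370 in AEG1, 4930 to 5340 in MYC and 5730 to 7370 in WT livers. The labels give no time of collection or feeding state, and the part of either in the Pck1 level was not tested.

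**Figure D5:**
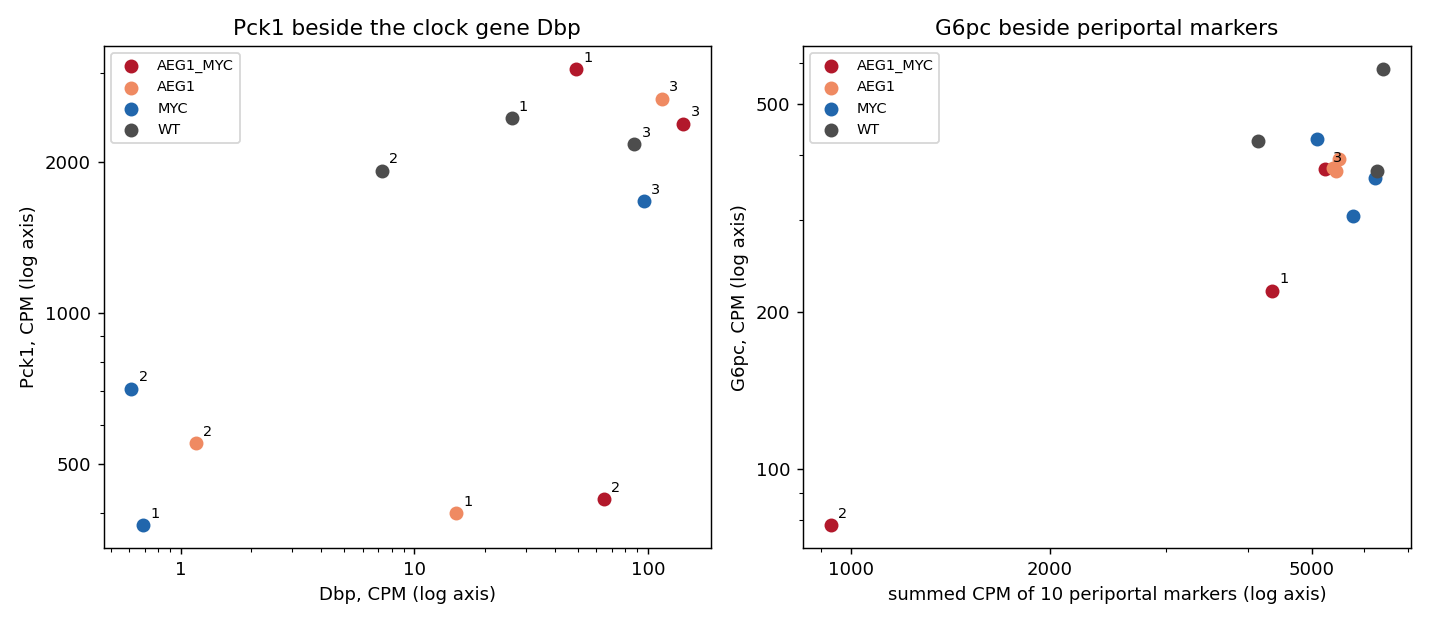
Left, Pck1 against Dbp and, right, G6pc against the summed CPM of 10 periportal markers in 12 libraries (all axes log; digits name the replicate, on the right for AEG1_MYC only). Pck1 at 378 to 707 CPM falls in 4 libraries with Dbp at 0.613 to 15.1 and in AEG1_MYC replicate 2, which is also the lowest point on the right.

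Members varied more within a genotype than most genes did. The median SD of log2 CPM among mice of 1 genotype was 0.34 over the members and 0.26 over all genes tested, and 24 of 37 members lay above 0.26. It was 1.3 for Pdk4, 1.2 for Pck1, 1.03 for Pfkfb3 and 0.89 for Hk2, and 0.09 for Tpi1 and 0.10 for Gcgr. AEG1_MYC replicate 2 was the library farthest from the median for 13 members and the lowest for 11. AEG1_MYC replicate 1 was the farthest for 8. Both libraries also had the lowest mean correlations over all genes tested, 0.923 for replicate 2 and 0.955 for replicate 1. Such counts were not made over all genes, so they are no trait of the members.

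The wider pathways were read from lists of 105 tested genes, and 0 were called in any contrast by edgeR. In AEG1_MYC over WT 11 were positive and 10 negative at an unadjusted p under 0.05, which is near the 17.2% of all genes tested, and the median log2 fold change of the 105 was 0.03. Among 19 other enzymes of glycolysis and hexose use, Ldhd, the mitochondrial D-lactate dehydrogenase, had the lowest p. Ldhd stood at 456, 326 and 325 CPM in AEG1_MYC livers, 227, 256 and 198 in AEG1 livers, 270, 280 and 291 in MYC livers, and 209, 224 and 250 in WT livers, and every AEG1_MYC library lay above the rest. Its log2 fold change in AEG1_MYC over WT was 0.70 ± 0.15 (adjusted p = 0.0959). The galactose enzymes went in opposite directions, with Galk1 (galactokinase) at 0.79 ± 0.23 and Galt (galactose-1-phosphate uridylyltransferase) at -0.81 ± 0.20 (adjusted p = 0.159 and 0.123).

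Of the 9 other transporters, Slc16a7 (a monocarboxylate carrier) was at 1.34 ± 0.39 and Slc5a1 (a sodium-glucose carrier) at 1.27 ± 0.46. In the pentose phosphate pathway 7 of 9 genes were negative, with a median of -0.22, and Pgd, H6pd and Rpia lay at -0.45 ± 0.16, -0.69 ± 0.27 and -0.49 ± 0.21. Of 15 other gluconeogenesis genes, Gpd1 (cytosolic glycerol-3-phosphate dehydrogenase) was at -0.78 ± 0.28 and Mdh1 (cytosolic malate dehydrogenase) at -0.35 ± 0.14. Of 10 genes of pyruvate entry, Pdha1 (a pyruvate dehydrogenase subunit) was at 0.33 ± 0.14 and Pdk3 at 1.12 ± 0.47. Pdk3 stood at only 0.385 to 0.661 CPM in AEG1_MYC and 0.115 to 0.275 in WT livers, so its value rests on few reads. Among 23 regulators, Ppargc1a (a coactivator that raises gluconeogenic genes in fasting) was at 1.10 ± 0.33, Foxo3 at 0.92 ± 0.30 and Mlxip at 0.56 ± 0.19. Ppargc1a stood at 31.2, 36.1 and 21.6 CPM in AEG1_MYC livers, against 14.3, 8.38 and 18.7 in WT livers, and the groups did not overlap. The adjusted p of these 12 genes by edgeR lay between 0.16 and 0.272.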

How the data were processed

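Each library's raw counts for 22609 genes were deposited by the authors, followed by 5 summary lines, which stayed out of library sizes and tests. The submitters' processing notes name CASAVA 1.8.2, TopHat2 2.0.7, HTSeq and the build mm9. Annotation and strand setting are not given in the sources used here, and overlapping and antisense genes cannot be told apart. Between 46.5% and 58% of the values in the tables were multiply aligned reads outside the gene counts, which lowers genes with near-identical copies.

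Groups came from the genotype labels. Nothing says how the mice were housed, sampled or batched, so p values measure the spread between these mice. No 2 libraries of a genotype agreed within sampling noise (lowest chi-square per gene 33.7), so none was counted as a duplicate. Library depth was 21931197 to 40552316 reads in genes.

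Counts were fitted in R 4.3.3 with edgeR 4.0.16 (TMM factors 0.914 to 1.19, filterByExpr, robust quasi-likelihood F test, two-sided), with 1 coefficient per genotype over all 12 libraries. A gene was called at a Benjamini-Hochberg adjusted p under 0.05 over 13684 genes. SEs were obtained from log2 fold changes and F statistics. Approximate 95% intervals use 8 degrees of freedom. CPM uses TMM-scaled library sizes. The interaction subtracts the AEG1 over WT value from the AEG1_MYC over MYC value in log2. The fit was tested on simulated data first. In simulated AEG1_MYC over WT it recovered 49 of 100 genes changed by 1 in log2, and 88 of 100 changed by 2. A change of 1 in log2 can therefore go uncalled with these groups.

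Members and lists were chosen with earlier results of these data known. Members with per-library values were the up to 8 with the lowest unadjusted p under 0.05 in AEG1_MYC over WT, up to 3 in each other contrast, and the one with the highest mean CPM of each role. Up to 3 genes of each other list were named by p in AEG1_MYC over WT, and Myc and Mtdh always. A few genes under this rule are not reported here. Other members with per-library values (Gys2, Slc2a1, Hk2, Ldha, Fbp1, Pck2, Pdk4) were chosen after their values were seen. The alternatives tried were scaling by RLE or by upper quartile, no low-count filter, a minimum CPM of 1 in 3 libraries, DESeq2 1.42.0, limma 3.58.1 with library quality weights, the compared genotypes alone, and libraries left out. Exon lengths, shared 50-base stretches and overlaps came from GENCODE M21 (GRCm38) and promoters from RefSeq. No mm9 coordinates were used.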

Additional observations from a re-analysis of the deposited data

How the results depend on the processing

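Of 317 values of named members under the alternatives, 304 kept their direction and their side of the threshold. Another 13 passed the threshold that the main fit missed, and 0 turned sign. They come from 16 fold changes picked for an unadjusted p under 0.05 in the main edgeR fit, so a turn of sign was unlikely from the start. Outside that choice signs could turn. Without AEG1_MYC replicate 2 the log2 fold change in AEG1_MYC over WT went from -0.16 to 0.32 for Pck1 and from -0.22 to 0.19 for Fbp1. A lost call could not occur, because the main fit called 0 members. DESeq2 called 2 members in AEG1_MYC over WT, 2 over AEG1, 2 over MYC and 1 for the interaction, against 0 by edgeR; the cause was not tested. Leaving out 1 library at a time, members called by edgeR ranged from 0 to 3 in AEG1_MYC over WT, 0 to 2 over AEG1 and 0 to 1 over MYC. They stayed at 0 in AEG1 over WT, in MYC over WT and for the interaction. The highest counts, 3, 2 and 1, came without AEG1_MYC replicate 3, where 4.95%, 4.54% and 3.24% of all genes were called; the cause was not tested. Over all settings the log2 fold change in AEG1_MYC over WT ran from -0.73 to -0.53 for Pygl, 0.75 to 1.8 for Ldhb, -1.62 to -0.29 for G6pc, 0.19 to 0.8 for Pkm2 and 0.15 to 0.54 for Pfkl. No scaling moved the median of all genes by more than 0.1. With AEG1_MYC replicates 1 and 2 both left out, the lone library of that genotype borrows its spread from the other genotypes. No paired analysis was possible because the labels give the mice no shared number, litter or batch, and replicate numbers follow accession order.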
